A study of Mus musculus with 14 samples.

Results

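Tetraspanins are small proteins that cross the cell membrane several times and gather receptors, integrins and enzymes into patches of the membrane. The 10 genes described here are Cd53, Cd37, Cd9, Cd63, Cd81, Cd82, Cd151, Tspan13, Tspan14 and Tspan31. They were selected on a readout: their transcript levels in calcium-high against calcium-low libraries were known when the genes were picked, so every difference between those groups is given for them as a description. Gene labels in the 14 library files were matched to each name, with or without a copy number. Each gene had 1 label among the 48714 labels shared by the files, and all 10 passed the filter of a mean of 1 RPKM (reads scaled by transcript length and library size) that left 9921 genes for the tests.

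The series profiled RNA from hematopoietic stem cells (HSCs) of C57BL/6 mouse bone marrow, the rare cells that renew themselves and form all blood lineages. Libraries fell into 2 groups of 7, calcium-high HSCs and calcium-low HSCs, named for the intracellular calcium of the sorted cells, and each was made from 100 cells. The title of the series concerns dormant and active HSCs told apart by G0 markers. The age, sex and genotype of the mice and the sorting gates are not given in the sources used here, nor is it said whether replicates came from separate animals, so p-values measure only the spread between these samples.

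Kit, a receptor of HSCs and early progenitors, lay between 59.3 and 74.6 RPKM in calcium-high libraries and between 60.9 and 76.1 RPKM in calcium-low libraries, and all 9 HSC marker genes averaged at least 1 RPKM. The number of reads in listed genes, recovered from the spacing of the values, ran from 8280683 to 10296224 in replicates 4 to 7 and from 3575219 to 7387721 in replicates 1 to 3. They are taken here as 2 sets that do not overlap in depth and that the labels do not name. Number 3, with 6129219 and 7387721 reads, lay between numbers 1 and 2, with 3575219 to 4712940, and replicates 4 to 7. Depth alone therefore does not fix the cut after number 3. Reads from 4 Y-linked genes numbered 1298 to 1638 in replicates 1 and 2 of both groups and 0 to 4 in the other libraries. Calcium-low replicate 3 stood apart: its summed level of 8 neutrophil markers was 766 RPKM, against at most 77.3 RPKM in the other 13 libraries, and that of 6 mitosis markers was 206 RPKM, against at most 23.0 RPKM. In bulk libraries, fewer cells that express a gene and less RNA per cell cannot be told apart.

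Cd53 and Cd37 are tetraspanins of white blood cells: CD53 is found across leukocytes, and CD37 mainly on mature B cells, where it shapes their survival and signalling. Cd9, Cd63, Cd81 and Cd82 are expressed in many tissues. CD9 is abundant on platelets and megakaryocytes and is used as a surface marker of mouse HSCs, CD63 resides in lysosomes and multivesicular bodies, CD81 organises receptors on many cell types and has been tied in mice to the return of HSCs to quiescence, and CD82 has been tied in mice to the dormancy of long-term HSCs. Cd151 encodes a partner of laminin-binding integrins, and Tspan14 encodes a guide of the protease ADAM10 to the cell surface. Tspan13 encodes a protein reported to bind a voltage-gated calcium channel in cultured cells, and the human counterpart of Tspan31 was found amplified in sarcomas beside CDK4.

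The promoter windows of Cd53, Cd37, Cd63 and Cd9 are shown because the first of these genes differed most between the groups, and because their windows differ in the short motifs searched. Each window holds 300 bases, 250 before to 50 after the RefSeq transcription start, on the gene's own strand in the GRCm38.p6 assembly. The window of Cd63 begins at 128909095, inside the gene as annotated by GENCODE, which starts at 128900989. It therefore does not cover the GENCODE start. The window of Cd37 ends at 45239089 and also lies inside its gene, whose GENCODE start on the minus strand is 45239115. Capitals mark GAGGAA, the core of sites bound by the blood transcription factor PU.1, or its reverse complement.
Cd53 (chr3:106790100-106790399, minus strand): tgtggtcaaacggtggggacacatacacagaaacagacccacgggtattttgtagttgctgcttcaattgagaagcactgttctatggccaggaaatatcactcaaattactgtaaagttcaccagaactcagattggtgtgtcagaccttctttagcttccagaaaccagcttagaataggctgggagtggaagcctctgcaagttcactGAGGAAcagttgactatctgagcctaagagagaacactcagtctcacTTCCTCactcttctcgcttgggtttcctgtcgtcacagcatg
Cd37 (chr7:45238790-45239089, minus strand): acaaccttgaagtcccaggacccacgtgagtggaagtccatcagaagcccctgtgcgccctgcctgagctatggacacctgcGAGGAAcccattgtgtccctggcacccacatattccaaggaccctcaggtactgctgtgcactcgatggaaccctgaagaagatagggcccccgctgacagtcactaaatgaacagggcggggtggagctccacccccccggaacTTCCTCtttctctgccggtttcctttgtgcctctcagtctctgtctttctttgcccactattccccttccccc
Cd63 (chr10:128909095-128909394, plus strand): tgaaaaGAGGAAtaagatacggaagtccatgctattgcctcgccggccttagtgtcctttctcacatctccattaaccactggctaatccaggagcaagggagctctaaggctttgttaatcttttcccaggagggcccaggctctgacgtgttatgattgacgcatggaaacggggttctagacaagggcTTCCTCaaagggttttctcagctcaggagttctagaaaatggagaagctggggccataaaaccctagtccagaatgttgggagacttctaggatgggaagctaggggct
Cd9 (chr6:125494711-125495010, minus strand): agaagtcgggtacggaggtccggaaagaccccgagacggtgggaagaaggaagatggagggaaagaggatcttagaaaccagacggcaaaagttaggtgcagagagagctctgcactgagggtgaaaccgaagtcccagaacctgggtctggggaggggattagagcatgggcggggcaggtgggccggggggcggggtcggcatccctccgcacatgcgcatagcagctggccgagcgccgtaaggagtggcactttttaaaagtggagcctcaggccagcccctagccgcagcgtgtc

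GAGGAA stood 2 times in the window of Cd53, 39 bases before and 8 bases after the start. It also stood 2 times in that of Cd37, 168 and 23 bases before the start, and 2 times in that of Cd63, 244 and 59 bases before it. Tspan14 held 1 match and Tspan31 held 2, and these letters were not in the windows of Cd9, Cd81, Cd82, Cd151 and Tspan13. On either strand, 28.3% of 32851 mouse promoter windows hold this motif. The GC box, GGGCGG, was in the windows of Cd37, Cd9, Cd81, Cd82, Cd151, Tspan13 and Tspan14, and not in those of Cd53, Cd63 and Tspan31, beside 35.7% of all windows. The ratio of observed to expected CpG pairs was 0.25 for Cd53, 0.33 for Cd63 and 0.34 for Cd37, whereas the other 7 windows lay between 0.58 for Cd82 and 0.89 for Tspan14. The median over all windows was 0.38. For Cd63 and Cd37 the motifs and the ratio describe windows inside the genes, not the GENCODE starts. The window of Tspan14, from 40966847 to 40967146 on the minus strand, lies wholly before its GENCODE start at 40966807. The motif of GATA factors searched, GATAAG, was in none of the 10 windows and in 7.44% of all. The letters of the TATA box, TATAAA, were in the window of Cd81, 6 bases after the start and not before it. They were in 13.6% of all windows, at any position. No matches overlapped, and a match of letters is a description of the window only.

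Cd53 showed the widest separation of the 10 genes and was lower in calcium-high HSCs. The gene lies on chromosome 3 from 106759921 to 106790149 (GRCm38, minus strand, 8 coding exons). Its level ran from 0.66 to 2.52 RPKM with a median of 1.57 in calcium-high libraries, and from 2.71 to 6.64 RPKM with a median of 5.06 in calcium-low libraries. The groups did not overlap, and calcium-high was the lower library at all 7 replicate numbers. The mean was 1.58 ± 0.686 RPKM in calcium-high HSCs, against 4.73 ± 1.49 RPKM in calcium-low HSCs (SD, n = 7 each), lower by a factor of 2.98. On the scale of log2(RPKM + 1), which understates changes of genes at such low levels, the difference of calcium-high minus calcium-low was -1.15 ± 0.195 (SE). With a pseudocount of 5 it was -0.55. It was -1.11 ± 0.223 in replicates 1 to 3 and -1.18 ± 0.121 in replicates 4 to 7. The thinnest value, in calcium-high replicate 1, rested on 31 reads, with a 95% exact Poisson interval from 21.1 to 44.0 reads that covers counting error only.

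Of 9921 genes tested, 0.141% had calcium-high and calcium-low values that did not overlap, and Cd53 was the only one of the 10 tetraspanins among them. The group comparison over all genes was made by limma on log2(RPKM + 1) with Benjamini-Hochberg adjustment, with an adjusted p under 0.05 as the call. Without a block it called 0% of genes, although 669 had an unadjusted p under 0.05. With the replicate number as a block it called 0.917% of genes, 48 of them higher and 43 lower, and among the 10 tetraspanins it called 1, Cd53, as lower. In replicates 4 to 7 alone 8.52% of genes were called, and 7 tetraspanins were among them: Cd53 and Cd37 as lower and Cd9, Cd63, Cd81, Cd151 and Tspan14 as higher. limma-voom on the recovered reads called 7.19% of genes, with Cd53 lower and Cd9 and Tspan14 higher. Since the genes were picked on this contrast, nothing is read from how their counts compare with those shares.

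Cd37, the second leukocyte tetraspanin, was also lower in calcium-high HSCs, by less. It ran from 6.18 to 14.9 RPKM with a median of 11.5 in calcium-high libraries, and from 6.27 to 20.7 RPKM with a median of 16.7 in calcium-low libraries. The groups overlapped, and calcium-high was lower at 6 of 7 replicate numbers, number 3 being the exception. The difference was -0.38 ± 0.244 (log2, SE), and without calcium-low replicate 3 it was -0.55. In replicates 4 to 7 the groups did not overlap: calcium-high libraries held 14.4, 14.9, 12.8 and 11.5 RPKM, against 19.3, 20.7, 17.5 and 16.7 RPKM in calcium-low libraries.

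**Figure D1:**
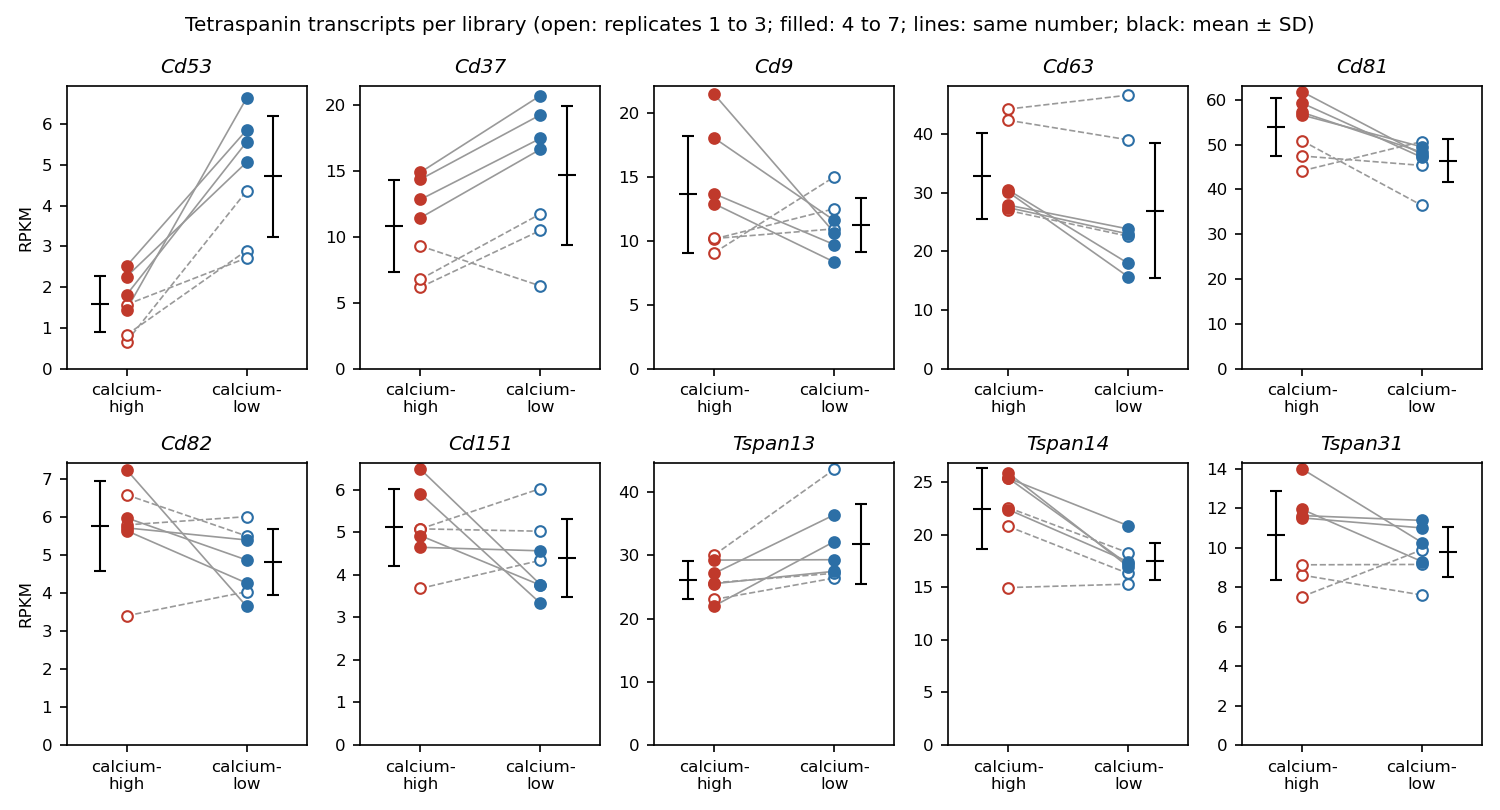
Level of each of the 10 tetraspanins in RPKM (linear axes from 0) in the 7 calcium-high (left, red) and 7 calcium-low (right, blue) libraries; open points are replicates 1 to 3, filled points replicates 4 to 7, lines join libraries of the same number, and black bars give the mean ± SD. Cd53 separates the groups without overlap, Tspan13 is lower in calcium-high at every number, and the lines of Cd9 run one way for the open points and the other way for the filled ones.

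Cd9 was higher in calcium-high HSCs at 4 of 7 replicate numbers, and the direction followed the library set. In replicates 4 to 7, calcium-high libraries held 12.9, 21.4, 18.0 and 13.7 RPKM, against 8.33, 10.6, 11.6 and 9.69 RPKM in calcium-low libraries. In replicates 1 to 3, calcium-high libraries held 10.1, 10.2 and 9.06 RPKM, against 12.5, 10.9 and 14.99 RPKM in calcium-low libraries. Calcium-high was thus higher at 4 of 4 numbers in replicates 4 to 7 and lower at 3 of 3 in replicates 1 to 3, with no overlap in either set. The log2 difference was 0.64 ± 0.148 (SE) in replicates 4 to 7, where the median over all genes tested was 0.11, and -0.35 ± 0.161 in replicates 1 to 3, where that median was -0.20.

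The interaction of calcium group and set, replicates 4 to 7 minus replicates 1 to 3, was 0.99 ± 0.230 (log2, SE) for Cd9, while the median over all genes was 0.31. With median-of-ratios scaling, which brings that median to -0.0046, the value for Cd9 was 0.62. These values rest on the same pairs of libraries as the choice of genes, so no p is given for them. Over all genes, limma called the interaction for 0% at an adjusted p under 0.05, and 2841 had an unadjusted p under 0.05.

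The myeloid genes Lyz2 and Ly6c2, picked here as genes with a pattern close to that of Cd9, were high in 2 of the libraries with high Cd9. Lyz2, the lysozyme gene of monocytes and granulocytes, stood at 147 and 140 RPKM in calcium-high replicates 5 and 6, and between 41.7 and 77.3 RPKM in the other 12 libraries. Ly6c2, a surface marker of monocytes, stood at 30.1 and 8.87 RPKM in those libraries and between 0 and 3.72 RPKM in the others. Of 8 markers of monocytes, macrophages and dendritic cells, 4 had a mean of 1 RPKM or more and none was at 0 throughout, and their sum ran from 48.3 to 179 RPKM in calcium-high libraries and from 71.7 to 94.7 RPKM in calcium-low libraries. Besides Lyz2, the list was carried by the antigen presentation genes Cd74, from 3.61 to 33.2 RPKM in calcium-high and from 3.90 to 22.9 RPKM in calcium-low libraries, and H2-Aa, and by Cd68. Lyz2 was higher in calcium-high at 3 of 7 numbers. Calcium-high replicates 5 and 6 had the highest Cd9 levels of all 14 libraries. Without them the log2 difference of Cd9 was -0.0027. Leaving out the highest calcium-high values lowers this difference by construction, so nothing is read from that value. Whether the marked cells account for the Cd9 values was not tested. In calcium-low replicate 3, which held the neutrophil transcripts, Cd9 was the highest of its group.

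**Figure D2:**
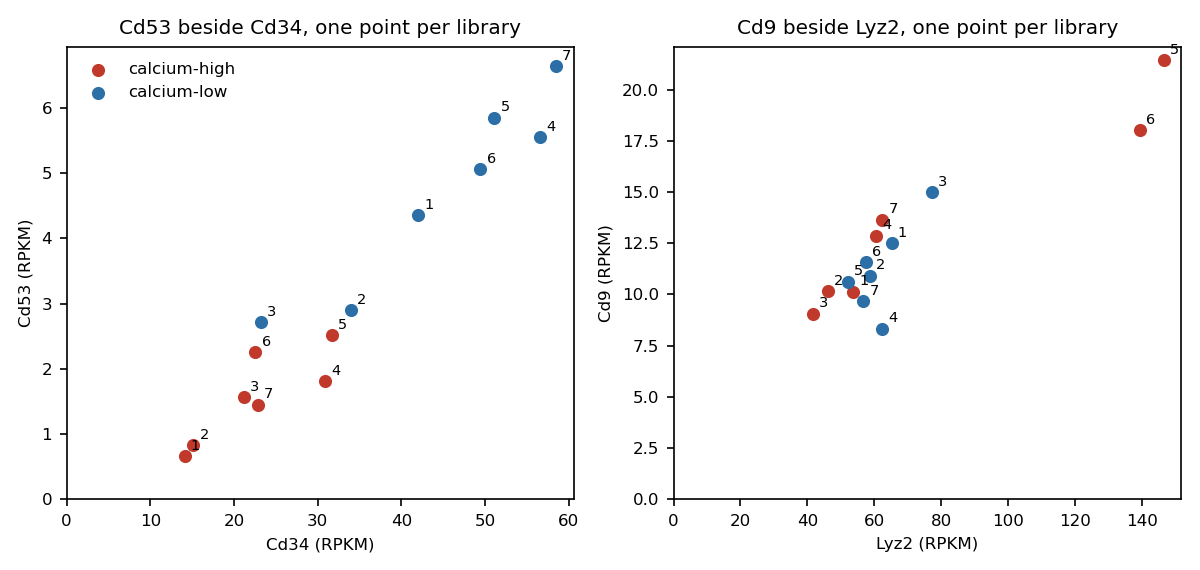
Left, Cd53 against Cd34, and right, Cd9 against Lyz2, in RPKM on linear axes, with 1 point for each library, its replicate number beside it, calcium-high in red and calcium-low in blue. Libraries with more Cd34 mostly held more Cd53 (Pearson r of 0.96 on log2(RPKM + 1)), with some exchanges of order within the groups, and calcium-high replicates 5 and 6 lie apart at the upper right for Cd9 and Lyz2.

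Cd63, Cd81 and Cd82 were each higher in calcium-high HSCs at most replicate numbers, by less than Cd53 was lower. Cd63 ran from 27.0 to 44.3 RPKM with a median of 30.1 in calcium-high libraries, and from 15.7 to 46.7 RPKM with a median of 23.0 in calcium-low libraries. It was higher in calcium-high at 6 of 7 numbers, with a log2 difference of 0.34 ± 0.213 (SE). The first 2 replicate numbers held more Cd63 than any other library in both groups, at 42.4 and 44.3 RPKM in calcium-high and 39.0 and 46.7 RPKM in calcium-low libraries. In replicates 4 to 7 the difference was 0.53 ± 0.120, with calcium-high libraries between 27.5 and 30.5 RPKM and calcium-low libraries between 15.7 and 23.8 RPKM. In replicates 1 to 3 it was 0.10 ± 0.299, and the groups overlapped. The median over all genes tested was 0.11 in replicates 4 to 7 and -0.20 in replicates 1 to 3.

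Cd81, the most abundant of the 10, ran from 44.2 to 61.8 RPKM with a median of 56.6 in calcium-high libraries, and from 36.4 to 50.7 RPKM with a median of 47.8 in calcium-low libraries. The log2 difference was 0.21 ± 0.111 (SE), higher in calcium-high at 6 of 7 numbers, again with number 3 the exception. Cd82 averaged 5.77 ± 1.19 RPKM in calcium-high HSCs, against 4.82 ± 0.868 RPKM in calcium-low HSCs (SD, n = 7 each), higher in calcium-high at 5 of 7 numbers, and the log2 difference was 0.21 ± 0.136. In replicates 1 to 3 it was -0.01 ± 0.230, and the groups overlapped.

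The remaining genes also went in both directions. Tspan14 averaged 22.5 ± 3.82 RPKM in calcium-high HSCs, against 17.5 ± 1.76 RPKM in calcium-low HSCs (SD, n = 7 each), higher at 6 of 7 numbers, with a log2 difference of 0.33 ± 0.123 (SE). Tspan13 went the other way: it averaged 26.1 ± 2.99 RPKM in calcium-high HSCs, against 31.8 ± 6.28 RPKM in calcium-low HSCs, lower in calcium-high at 7 of 7 numbers although the groups overlapped, with a log2 difference of -0.26 ± 0.126. It was the same in both sets, -0.26 ± 0.225 in replicates 1 to 3 and -0.26 ± 0.107 in replicates 4 to 7. At number 7 the libraries were nearly level, calcium-high with 29.27 RPKM against 29.32 RPKM for calcium-low.

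Cd151 averaged 5.12 ± 0.896 RPKM in calcium-high HSCs, against 4.40 ± 0.915 RPKM in calcium-low HSCs (SD, n = 7 each), higher in calcium-high at 5 of 7 numbers. Its log2 difference was 0.18 ± 0.125 over all libraries, -0.13 ± 0.170 in replicates 1 to 3 and 0.41 ± 0.112 in replicates 4 to 7. The medians over all genes tested in those sets were -0.20 and 0.11. Tspan31 averaged 10.6 ± 2.26 RPKM in calcium-high HSCs, against 9.79 ± 1.27 RPKM in calcium-low HSCs, with a log2 difference of 0.09 ± 0.132, the smallest of the 10 in size. Its exons share 641 bases with those of Cdk4, the cell cycle kinase gene on the opposite strand, which averaged 46.7 RPKM in calcium-high HSCs, against 57.2 RPKM in calcium-low HSCs. Whether counting used the strand is not given in the sources used here, so reads from the shared stretch cannot be told apart.

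In replicates 4 to 7, 9 of the 10 genes did not overlap between the groups, all but Tspan13, where 17% of all genes tested did not overlap. In replicates 1 to 3 the genes without overlap were Cd53 and Cd9, where 20.3% of all genes tested did not overlap. These counts describe genes picked on the same contrast.

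**Figure D3:**
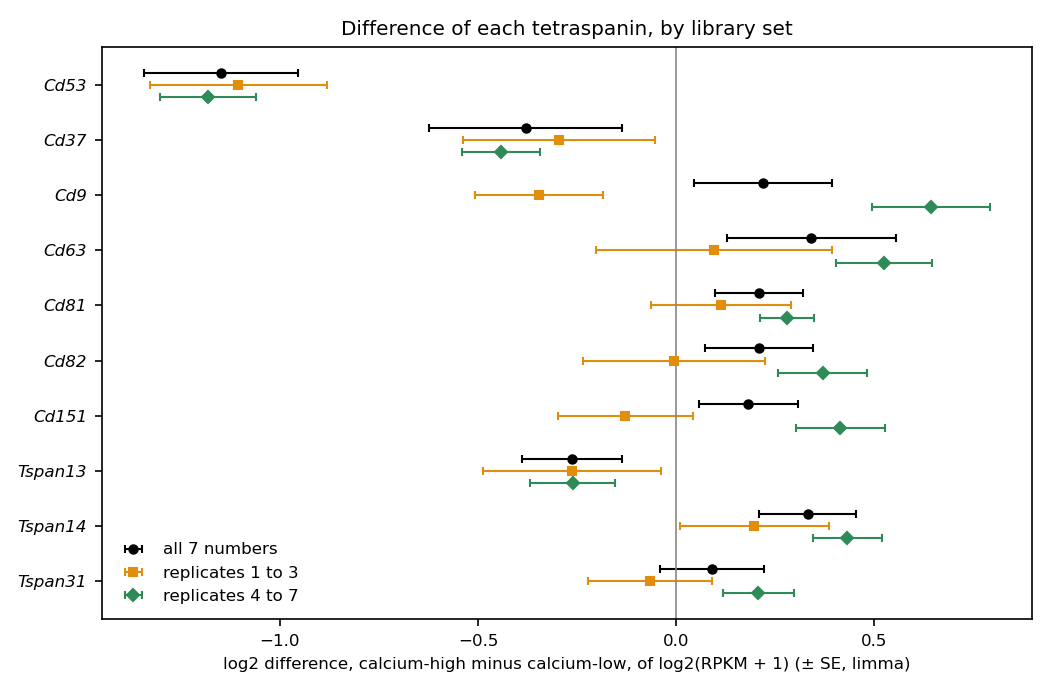
Log2 difference of log2(RPKM + 1), calcium-high minus calcium-low, of each tetraspanin with its standard error from limma, over all 7 replicate numbers (black circles), replicates 1 to 3 (orange squares) and replicates 4 to 7 (green diamonds). Cd53, Cd37 and Tspan13 lie left of 0 in both sets, and Cd9 lies on opposite sides of 0, at 0.64 in replicates 4 to 7 and -0.35 in replicates 1 to 3.

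Setting the leukocyte tetraspanins against the widely expressed ones within each library removes most of any scaling of the library. The mean log2(RPKM + 1) of Cd53 and Cd37 minus that of Cd9, Cd63, Cd81 and Cd82 ran from -2.60 to -1.58 with a median of -1.81 in calcium-high libraries, and from -1.77 to -0.40 with a median of -0.53 in calcium-low libraries. The difference between the group means was -1.01 on the log2 scale, with SDs of 0.42 in calcium-high and 0.59 in calcium-low libraries (n = 7 each). Calcium-high was lower at 6 of 7 numbers. Number 3 was the exception, at -1.58 in calcium-high and -1.77 in calcium-low, the library with the neutrophil transcripts. Without that library the difference was -1.15, and with a pseudocount of 5 it was -0.62 and by limma-voom on the recovered reads -1.53. It was -0.66 in replicates 1 to 3, where the groups overlapped, and -1.27 in replicates 4 to 7, where calcium-high libraries lay between -1.91 and -1.58 and calcium-low libraries between -0.53 and -0.40. The contrast belongs to the rule that chose the genes, so no test is given.

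**Figure D4:**
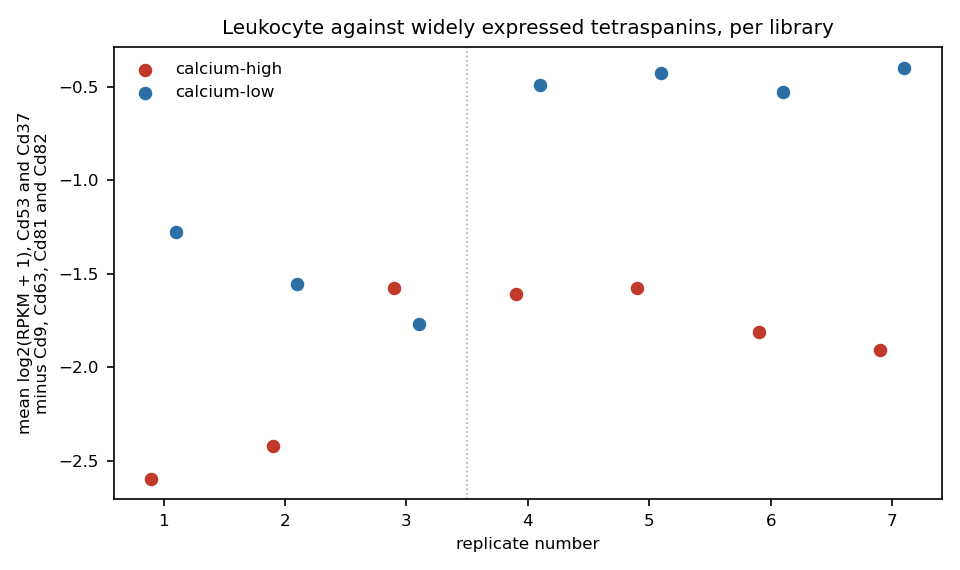
Contrast of Cd53 and Cd37 with Cd9, Cd63, Cd81 and Cd82 (difference of mean log2(RPKM + 1)) for every library by replicate number, calcium-high in red and calcium-low in blue, with a dotted line between replicates 3 and 4. Calcium-high lies below calcium-low at every number but 3, and the gap between the groups is wide at numbers 1 and 4 to 7.

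The abundance of the 10 genes, which the choice of genes did not use, fell into steps. Averaged over all 14 libraries, Cd81 came first at 50.2 RPKM, above 98.3% of the genes tested, followed by Tspan13 at 29.0 and Cd63 at 29.9 RPKM, Tspan14 at 19.98, Cd37 at 12.8 and Cd9 at 12.4, Tspan31 at 10.2, Cd82 at 5.30, Cd151 at 4.76 and Cd53 at 3.15 RPKM. The genes were ordered by their mean log2(RPKM + 1) and the 9 pairs of neighbours were compared by exact two-sided sign-flip permutation tests over the 7 replicate numbers, whose smallest possible p is 0.0156. Of these, 6 passed after Benjamini-Hochberg adjustment over all libraries, and 0 passed in calcium-low libraries alone, where the smallest adjusted exact p was 0.0703 and 3 pairs had an unadjusted p under 0.05. Cd81 lay above Tspan13, Cd63 above Tspan14, Tspan14 above Cd9, Tspan31 above Cd82 and Cd151 above Cd53 at 7 of 7 numbers (adjusted exact p = 0.0281 for each), and Cd82 lay above Cd151 at 6 of 7 (adjusted exact p = 0.0469). Reads from the exon stretch that Tspan31 shares with Cdk4 cannot be told apart, so the place of Tspan31 in the order carries that limit.

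The neighbours that did not differ beyond their spread were Tspan13 and Cd63, Cd9 and Cd37, and Cd37 and Tspan31. Their log2 differences were 0.00 ± 0.522, 0.01 ± 0.416 and 0.23 ± 0.287 (SD over 7 numbers). The order was not the same in the groups. Cd63 ranked 2 and Tspan13 ranked 3 in calcium-high libraries, whereas Tspan13 ranked 2 and Cd63 ranked 3 in calcium-low libraries. Cd37 ranked 7 in calcium-high and 5 in calcium-low libraries, and Cd53 was last in calcium-high and ranked 9, above Cd151, in calcium-low libraries. In calcium-high libraries alone Cd151 lay 1.28 log2 units above Cd53 at 7 of 7 numbers, while in calcium-low libraries Cd53 lay 0.05 units above Cd151 with an SD of 0.55.

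**Figure D5:**
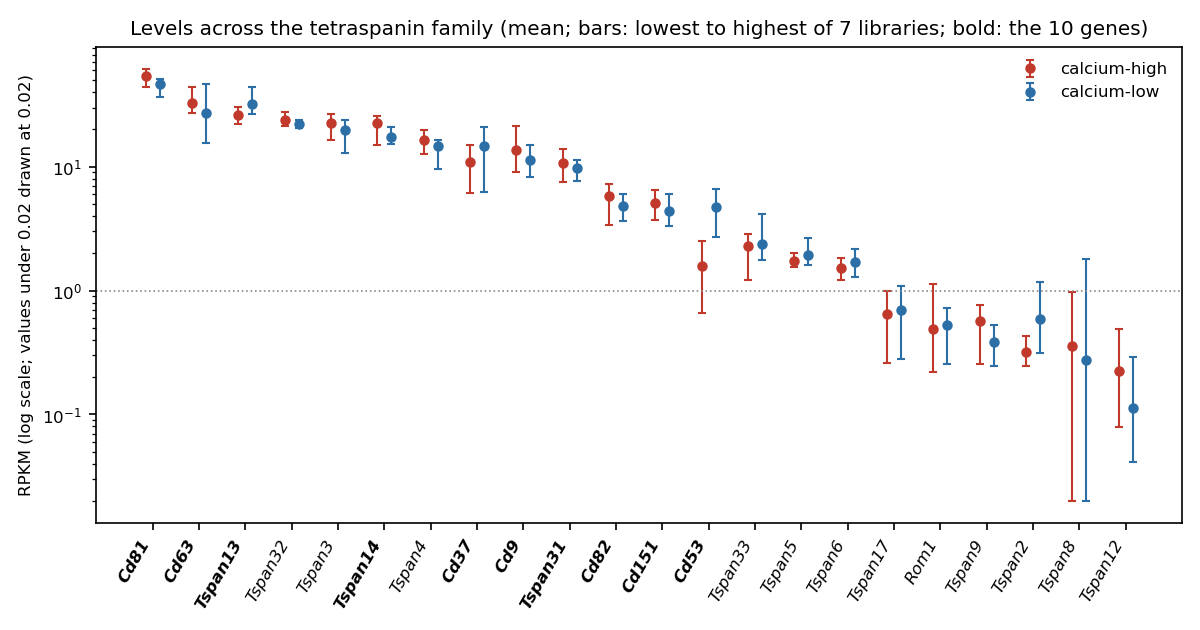
Mean level in RPKM (log scale) of the tetraspanin genes averaging at least 0.1 RPKM, ordered by mean, in calcium-high (red, left of each pair) and calcium-low (blue) libraries, with bars from the lowest to the highest of 7 libraries. The 10 genes described are in bold, the dotted line marks 1 RPKM, and Cd53 is the bold gene whose bars do not meet.

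The genes differed in how much they varied within a group. The pooled SD of log2(RPKM + 1) within groups was 0.52 for Cd37, above 93.9% of genes tested, 0.44 for Cd63, 0.40 for Cd53 and 0.35 for Cd9. It was 0.17 for Cd81, above 9.30% of genes tested, and between 0.21 and 0.25 for the other 5. Replicates 4 to 7 against 1 to 3, with the calcium group in the model, gave 48.8% of all genes as called (limma, Benjamini-Hochberg), and 5 of the 10 tetraspanins. This fit treats libraries of the same number as independent. Within the sets, such libraries correlated from -0.0647 at number 6 to 0.552 at number 3, so its adjusted p may be too small. Cd37 averaged 16.0 ± 3.17 RPKM in replicates 4 to 7 and 8.47 ± 2.39 RPKM in replicates 1 to 3 (SD, n = 8 and 6), a log2 difference of 0.86 with an adjusted p of 8.3e-05. Cd53 was higher by 0.63 (adjusted p = 0.000651), Tspan31 by 0.36 (adjusted p = 0.00428) and Cd81 by 0.22 (adjusted p = 0.0425).

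Cd63 was the tetraspanin called lower in replicates 4 to 7, at 24.5 ± 5.49 RPKM against 37.0 ± 9.88 RPKM in replicates 1 to 3. The log2 difference was -0.56 (adjusted p = 0.0101, limma, the same fit with the same limit). The higher values were those of numbers 1 and 2, whereas at number 3 it stood at 27.0 RPKM in the calcium-high library and at 22.6 RPKM in the calcium-low library, within the range of replicates 4 to 7. Number 3 also had few Y-linked reads, like replicates 4 to 7. Depth and whatever else separated the sets cannot be told apart.

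Across the 14 libraries Cd53 and Cd37 varied together, with a Pearson r of 0.76 and, after group means were taken out, of 0.89. Cd81 and Tspan31 (0.80), Cd81 and Tspan14 (0.76) and Cd82 and Cd151 (0.75) also varied together, and Cd53 and Cd63 varied in opposite directions (-0.66). These values describe libraries that share groups, sets and depth. The 3 genes whose pattern was most like that of Cd53 were Cd34 (r = 0.96 over 14 libraries), a surface protein of progenitors that long-term HSCs of the mouse lack or carry at low levels, Antxr2 (0.93), an anthrax toxin receptor, and Mdga1 (0.93).

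Cd34 averaged 22.6 ± 6.84 RPKM in calcium-high HSCs, against 45.0 ± 12.8 RPKM in calcium-low HSCs (SD, n = 7 each), lower in calcium-high at 7 of 7 numbers. Cd34 was picked here for its likeness to Cd53, a gene chosen on this contrast, so its difference is a description and no p is given. All 3 markers of multipotent progenitors, Cd34, Flt3 and Cd48, averaged at least 1 RPKM and none was at 0, and their sum ran from 14.95 to 35.9 RPKM in calcium-high and from 25.5 to 65.9 RPKM in calcium-low libraries. Their part in the Cd53 difference was not tested.

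Cd37 was most like Sh2d5 (r = 0.96), Irf2bp2 (0.96) and Bin1 (0.95). Cd9 was most like Ly6c2 (0.91), Clpb (0.90) and Lyz2 (0.89), and Cd63 most like Sgms1 (0.96), Ddx17 (0.95) and Slc6a15 (0.94). Cd81 was most like Pxmp4 (0.92), Ip6k1 (0.91) and Cln6 (0.91), and Cd82 most like Sema7a (0.91), Lbp (0.90) and Trim47 (0.90). All are Pearson r of log2(RPKM + 1) over 14 libraries, the highest among the genes tested.

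Markers of mature lymphocytes, in which Cd37 and Cd53 are abundant, were unevenly detected. Of 6 B cell markers, 1 (Cd79b) had a mean of 1 RPKM or more and Ms4a1 was at 0 in all libraries, with sums from 2.91 to 5.97 RPKM in calcium-high and from 3.25 to 6.27 RPKM in calcium-low libraries. Of 6 T and NK cell markers, Cd3e, Cd3g and Gzma were at 0 in all libraries. The sum of the list ran from 4.55 to 18.7 RPKM in calcium-high and from 11.7 to 33.0 RPKM in calcium-low libraries, in the direction of Cd53 and Cd37. It was mostly Nkg7, the marker of the list that averaged at least 1 RPKM. Nkg7 ran from 3.38 to 18.1 RPKM in calcium-high and from 11.4 to 33.0 RPKM in calcium-low libraries. Klrb1c went the other way, from 0.461 to 1.70 RPKM in calcium-high and from 0 to 0.490 RPKM in calcium-low libraries. Cd3d reached at most 0.232 RPKM, in a calcium-high library. The direction of the sum is thus that of Nkg7, and its part in the Cd53 and Cd37 differences was not tested.

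Of the other 22 tetraspanin genes of the mouse, 21 were listed, 2 of these (Tspan10 and Tspan11) were at 0 in every library, and 6 had a mean of 1 RPKM or more. None of the 6 was called with or without the block. Their median log2 difference was 0.03, beside -0.03 over all genes tested, with 3 positive and 3 negative. Tspan32, a blood cell tetraspanin whose gene ends 33094 bases before Cd81, averaged 23.7 ± 2.06 RPKM in calcium-high HSCs, against 22.0 ± 1.14 RPKM in calcium-low HSCs (SD, n = 7 each). Tspan3 averaged 22.6 and 19.6 RPKM, and Tspan4, whose protein marks migrasomes and whose gene starts 3766 bases from Cd151, averaged 16.3 and 14.8 RPKM in calcium-high and calcium-low libraries. Tspan33 (2.28 and 2.39 RPKM), Tspan5 (1.73 and 1.95 RPKM), which like Tspan14 guide ADAM10, and Tspan6 (1.53 and 1.71 RPKM) were less abundant, each value in calcium-high libraries given before that in calcium-low libraries.

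Of 31 genes for known binding partners and modifiers of tetraspanins, 22 were tested and none was called with or without the block, with 8 positive and 14 negative differences and a median of -0.03. The 5 most abundant were Kit (67.2 RPKM in calcium-high HSCs, against 67.5 RPKM in calcium-low HSCs), Rac1 (37.0 and 34.9 RPKM), Cd47 (29.6 and 33.2 RPKM), Sdcbp (25.9 and 27.2 RPKM), which encodes the adaptor syntenin of CD63, and Cxcr4 (28.1 and 23.5 RPKM). Adam10 itself averaged 13.9 ± 3.87 RPKM in calcium-high HSCs, against 16.1 ± 6.22 RPKM in calcium-low HSCs, with a log2 difference of -0.16. Itga6, whose protein forms laminin-binding integrins with which CD151 associates, averaged 11.5 ± 1.76 and 10.3 ± 2.84 RPKM in the same order, with a log2 difference of 0.17.

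Of 20 genes of multivesicular bodies and exosomes, the route on which CD63, CD9 and CD81 leave the cell, 19 were tested, 8 with positive and 11 with negative differences and a median of -0.02. Sdc4, the gene of the heparan sulfate proteoglycan syndecan-4, was called as higher with the block (limma adjusted p = 0.0364) and not without it (0.381). It averaged 1.91 ± 0.698 RPKM in calcium-high HSCs, against 0.897 ± 0.459 RPKM in calcium-low HSCs (SD, n = 7 each), higher at 7 of 7 numbers. The most abundant genes of the list were Rab7 (23.3 RPKM in calcium-high HSCs, against 23.9 RPKM in calcium-low HSCs), Lamp1 (19.4 and 18.7 RPKM), Flot1 (14.1 and 15.5 RPKM), Vps4b (10.5 and 11.3 RPKM) and Chmp4b (10.03 and 11.4 RPKM), and none of them was called.

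The genes beside the tetraspanins on the chromosome were looked at for differences of their own. Vwf, the gene of von Willebrand factor, lies 51982 bases from Cd9 and averaged 17.3 ± 5.88 RPKM in calcium-high HSCs, against 4.87 ± 2.44 RPKM in calcium-low HSCs (SD, n = 7 each), higher at 7 of 7 numbers, whereas Cd9 was higher at 4 of 7. Cracr2b, a regulator of store-operated calcium entry, ends 778 bases before Cd151 and averaged 2.43 ± 0.812 RPKM in calcium-high HSCs, against 1.09 ± 0.619 RPKM in calcium-low HSCs, higher at 7 of 7 numbers, with a limma adjusted p of 0.0364 with the block and 0.254 without it. Exons of Cd37 share 13 bases with those of Tead2 on the opposite strand, and the other annotated genes with exons over Cd9, Cd81 and Cd151 were listed at 0 RPKM in all libraries.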

How the data were processed

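The RPKM values are those the authors deposited, 1 table per library, and the log2 values were computed from them here. The labels' protocols describe cDNA made with not-so-random primers and Nextera XT libraries sequenced on a NextSeq. The submitters' processing notes name GRCm38, mm10 and edgeR without a role, and the aligner and the annotation are not given in the sources used here. Of the labels, 48714 were found in all files, and 9921 with a mean of 1 RPKM or more were tested. RPKM values of all 9848 genes above 0 in every library with that mean were whole multiples of a step per read to within 0.02 reads, which gave recovered reads for limma-voom. No column of values was left unused.

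Tests used limma 3.58.1 in R 4.3.3, on log2(RPKM + 1), that is with a pseudocount of 1, a variance trend over the mean and Benjamini-Hochberg adjustment over all genes tested. Descriptions and exact sign-flip tests used Python 3.11.15 with scipy 1.17.1. The procedure was tested on simulated data. Libraries with the same replicate number deviated together, with correlations from 0.384 to 0.715 over genes. The labels give the numbers but no shared animal or day, and within the library sets the correlations ran from -0.0647 to 0.552. The fit with the number as a block is therefore given where it changes a call.

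The 10 genes and the lists were chosen with earlier results of these data known. Named genes are the 10 tetraspanins, every other tetraspanin with a mean of 1 RPKM or more, the 5 most abundant genes of the partner and vesicle lists with any gene called, and the 3 genes most like each of 6 tetraspanins. Cd44, Tsg101, Adam10, Itga6, Tspan2, Tspan9, Clec7a and Cd36 and the chromosomal neighbours were named outside that rule, after their values were seen. Coordinates are those of GENCODE on GRCm38, and promoter windows, found for all 10 genes, come from RefSeq on GRCm38.p6. Where RefSeq had several windows for a gene, the one nearest the GENCODE start was used.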

Additional observations from a re-analysis of the deposited data

Results flagged for a closer look

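In 34 groups of 7 libraries checked over the 10 tetraspanins, their contrast and the 6 other tetraspanins tested, a single library lay far from the rest in 4, where chance flags about 1 in 20. Cd82 in calcium-high replicate 3 was low at 3.41 RPKM, with the other calcium-high libraries at 5.65 RPKM or more. Cd81 in calcium-low replicate 1 was low at 36.4 RPKM. Calcium-low replicate 3, the library with the neutrophil transcripts, was low for Tspan4 at 9.54 RPKM and high for Tspan33 at 4.15 RPKM.

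For Cd9 every pair of replicates 4 to 7 was higher in calcium-high and every pair of replicates 1 to 3 was lower. The interaction was 0.99 on the log2 scale. It is a description, not tested for Cd9, since the gene was picked on these values.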

How the results depend on the processing

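Counts of called genes depended on the model. Against 0 higher and 0 lower without a block, the replicate block gave 48 and 43, the block together with median-of-ratios scaling (added after seeing the data) 200 and 126, limma-voom 464 and 249, replicates 4 to 7 alone 651 and 180, and the library set as a term 22 and 29. Median-of-ratios scaling gave 4 higher, upper-quartile scaling 6 and no filter 1, each with 0 lower. Leaving out replicates gave 0 to 80 higher and 0 to 42 lower, the most without replicate 3. Without calcium-low replicate 3 there were 7 higher and 14 lower. Tetraspanins called numbered 0 without the block, 1 with the replicate block, 2 with median-of-ratios scaling and the block together (Cd53 and Tspan14), 3 by limma-voom, 7 in replicates 4 to 7 and 1 with the library set as a term, and 0 to 1 with replicates left out, Cd53 being called without replicate 3. Partners called were 1 with that scaling and the block together, 1 by limma-voom and 3 in replicates 4 to 7. Vesicle genes called were 1 with the replicate block, with that scaling and the block together, by limma-voom and in replicates 4 to 7, and 0 to 1 with replicates left out. The contrast was -1.53 by limma-voom and -0.62 with a pseudocount of 5, against -1.01, and in calcium-low libraries alone 0 of the 9 neighbouring levels differed, against 6 over all libraries. The cause of these changes was not tested.

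Over 20 alternatives the differences of Cd53 (-1.69 by limma-voom to -0.55 with a pseudocount of 5), Cd37, Cd63, Cd81, Tspan13 and Tspan14 kept their sign. Those of Cd9 (-0.35 to 0.64) and Tspan31 (-0.07 to 0.21) changed it in replicates 1 to 3 and without calcium-high replicates 5 and 6. The last alternative was added after seeing the data and leaves out the highest Cd9 values, so for Cd9 a fall was fixed in advance. Those of Cd82 and Cd151 changed it in replicates 1 to 3. Each tetraspanin has 1 label, so a sum over copies gives no other value. Depth limits Cd53 most, at 31 to 691 reads per library.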

Other observations

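Some tetraspanins and partners under the filter of 1 RPKM had the same order in every pair of libraries, and they are named after their values were seen. Tspan2 averaged 0.319 ± 0.079 RPKM in calcium-high HSCs, against 0.587 ± 0.316 RPKM in calcium-low HSCs (SD, n = 7 each), lower at 7 of 7 numbers. Tspan9, expressed in megakaryocytes and platelets, averaged 0.569 ± 0.181 RPKM in calcium-high HSCs, against 0.388 ± 0.094 RPKM in calcium-low HSCs, higher at 7 of 7 numbers. Clec7a, the gene of the CD37 partner dectin-1, averaged 0.579 ± 0.488 and 0.139 ± 0.142 RPKM, and Cd36, a partner of CD9, averaged 0.124 ± 0.066 and 0.060 ± 0.074 RPKM, calcium-high before calcium-low, each higher at 7 of 7 numbers. Clec7a and Cd36 fell to 0 RPKM among the calcium-low libraries. These genes were not tested, and the share of all genes with the same order at 7 of 7 numbers is not given, so nothing is read from that count.

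Among tested genes, Cd44, an adhesion receptor found in tetraspanin patches, averaged 13.4 ± 1.12 RPKM in calcium-high HSCs, against 16.7 ± 2.38 RPKM in calcium-low HSCs, lower at 7 of 7 numbers, with limma adjusted p of 0.562 without and 0.129 with the block. Tsg101, an ESCRT component of multivesicular bodies, averaged 7.16 ± 0.690 and 8.40 ± 1.12 RPKM in the same order, lower at 7 of 7 numbers, with adjusted p of 0.777 without and 0.312 with the block.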
